A study of Mus musculus with 2 samples.

Results

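The genes described here are 9 genes that mark monocytes and the macrophages that have recently arisen from them, measured in liver macrophages of mice carrying colon cancer metastases. They are Ly6c2, Plac8, F13a1, Fn1, Vcan, S100a4 and Chil3, which are genes of classical monocytes and of fresh recruits, and Ace and Spn, which are genes of patrolling monocytes. They were chosen by name, and each matched 1 of the 22322 rows of the deposited table through its Ensembl gene ID. One library came from wild-type (WT) mice and 1 from FABP7 knockout (KO) mice, both labelled C57BL/6 (C57BL/6J for the KO by the methods), and both groups received 500000 MC38 cells, a mouse colon carcinoma line, in 100 µl into the spleen. The KO is systemic by the study's methods, so Fabp7 is disrupted in all cells of those mice and not in macrophages alone, and the methods describe young adult male mice. On day 10 the metastatic livers were taken and their macrophages purified by positive selection for F4/80, a surface protein of which monocytes carry less than Kupffer cells. Neither the labels nor the methods say how many mice each library pools, and 1 label field calls the KO sample a knockdown. With 1 library per genotype no difference has a replicate check, so values and ratios are given with no test and no p-value.

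Monocytes leave the bone marrow and circulate in the blood. Classical monocytes carry high levels of Ly6C and the chemokine receptor CCR2 and enter injured or tumor-bearing tissue, where they become macrophages, whereas patrolling monocytes carry little Ly6C and survey the vessel wall. Kupffer cells, the resident macrophages of the liver sinusoids, are seeded before birth and renew themselves, and monocytes can replace them when they are lost, losing monocyte genes and gaining Kupffer genes as they mature.

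Levels are in FPKM, fragment counts scaled to transcript length and to the size of the library, so levels of different genes may be compared per length. Each log2 ratio is KO over WT after adding 1 FPKM to both values unless a sentence says otherwise, which understates the change of low genes. A gene was called measured where either library reached 1 FPKM, which left 10770 genes with a median log2 ratio of 0.004. Such a gene can lie below 1 FPKM in the other library. A gene passed the size rule with a log2 ratio of 1 or more in either direction, that is, 2-fold on the scale with the pseudocount. Fabp7 stood at 354 FPKM in WT against 0.69 FPKM in KO cells. The deposited table holds no read totals. From the steps between its low values the depth was estimated at 18100000 fragments for WT and 18000000 for KO. The intervals below use this estimate, cover counting error only and compare the 2 libraries, not the genotypes.

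Of the 9 genes, 7 were measured and F13a1 and Vcan were below the floor in both libraries. By the size rule 1 of the 7, Plac8, was lower in the KO library, against 2.95% of all measured genes, and 0 were higher, against 2.21%. The 7 ratios ran from -1.08 for Plac8 to 0.56 for Chil3, with a median of 0.32, and 4 lay above 0 and 3 below. The median was the ratio of Ace, which reached the floor in the KO library only. With a floor of 5 FPKM only Plac8, Ly6c2 and Fn1 were left and the median was -0.96. Plac8 and Ly6c2 thus stood apart from the others, each with a KO level under 0.5 times the WT level in FPKM, while the other 5 measured genes had ratios between -0.02 and 0.56. In bulk RNA, fewer cells of a type and less RNA per cell cannot be told apart.

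**Figure D1:**
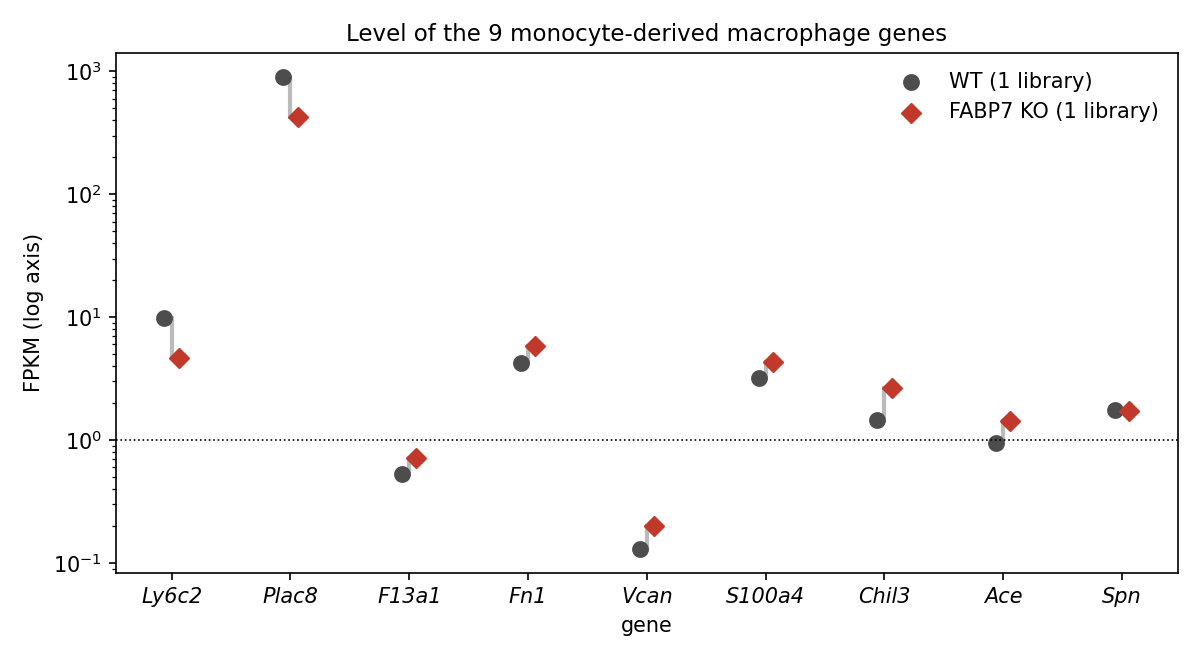
FPKM on a log axis of the 9 monocyte genes, 1 point for the WT and 1 for the KO library. Plac8 lies far above the other 8 genes in both libraries, and for Ly6c2 and Plac8 the KO point lies below the WT point. The dotted line is the floor of 1 FPKM.

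Plac8 (ENSMUSG00000029322) encodes a small cysteine-rich protein of myeloid and lymphoid cells and is abundant in classical monocytes. It was at 908 FPKM in WT against 427 FPKM in KO cells, the 53rd and the 118th highest level of all genes. Its log2 ratio was -1.08, and 2.53% of the measured genes had a lower one. About 20084 and 9400 fragments lay behind these values, so that the ratio without a pseudocount was -1.09 with a 95% exact interval of -1.12 to -1.05. Plac8 was the only one of the 9 genes above 10 FPKM in either library.

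Ly6c2 (ENSMUSG00000022584) encodes the Ly6C surface protein by which classical monocytes are sorted. Its level was 9.92 FPKM in WT against 4.63 FPKM in KO cells, a log2 ratio of -0.96, just short of the size rule, which it passed at -1.08 and -1.02 with a pseudocount of 0.1 and 0.5 FPKM. Without the pseudocount the ratio was -1.10, with an interval of -1.54 to -0.68 from about 147 and 68 fragments. The WT level was thus 2.14 times the KO level for Ly6c2 and 2.12 times for Plac8. Plac8 exceeded Ly6c2 by a factor of 91.5 in the WT library and 92.3 in the KO library. The proportion of the pair was thus close in both, but the width of the Ly6c2 interval leaves it uncertain.

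The coding sequence of Ly6c2 is close to that of its neighbor in sequence Ly6c1, which endothelial cells and some lymphocytes express. The first 90 coding bases of both are shown. They were picked as the stretch of 90 bases, begun at a codon, with the most differences, so the rest of the sequence tells the reads apart less well. They come from GENCODE release M21 transcripts, read from base 1 to base 90, and capitals mark the 6 bases that differ.
Ly6c2: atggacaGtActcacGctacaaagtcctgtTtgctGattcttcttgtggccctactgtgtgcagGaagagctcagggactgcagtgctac
Ly6c1: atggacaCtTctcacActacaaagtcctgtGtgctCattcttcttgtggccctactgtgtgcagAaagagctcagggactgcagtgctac
Over the whole coding sequence 384 of 393 bases were identical, or 97.7%, and the longest identical run was 188 bases. Of the 817 stretches of 50 bases in the Ly6c2 transcript, 255 also occurred in other genes, 252 of them in Ly6c1. Ly6c1 itself was at 0.53 FPKM in WT against 0.13 FPKM in KO cells, far below Ly6c2 in both. The sources used here do not say how reads shared by such genes were counted, so the Ly6c2 level is uncertain to that extent. No such stretch of the Plac8 transcript occurred in another gene.

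The promoters of Plac8 and Ly6c2 are shown because these were the genes with lower KO values. Both are RefSeq sequences of build GRCm38.p6, 250 bases up to the first annotated start and read along the gene, and capitals mark the PU.1 core GAGGAA on either strand. PU.1 is the transcription factor that specifies the myeloid lineage. The Plac8 promoter lies at chr5:100572206-100572455 on the minus strand and the Ly6c2 promoter at chr15:75111972-75112221 on the minus strand.
Plac8: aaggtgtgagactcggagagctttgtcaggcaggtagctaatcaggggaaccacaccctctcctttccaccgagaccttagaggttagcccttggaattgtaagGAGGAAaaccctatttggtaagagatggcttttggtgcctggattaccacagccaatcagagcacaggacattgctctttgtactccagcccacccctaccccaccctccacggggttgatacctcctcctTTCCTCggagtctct
Ly6c2: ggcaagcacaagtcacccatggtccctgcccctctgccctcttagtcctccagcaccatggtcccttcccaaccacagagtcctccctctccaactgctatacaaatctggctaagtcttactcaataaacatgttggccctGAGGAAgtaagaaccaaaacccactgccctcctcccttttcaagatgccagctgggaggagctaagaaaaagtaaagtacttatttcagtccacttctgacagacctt
The core began 146 and 15 bases before the Plac8 start and 108 bases before the Ly6c2 start. It was present for 4 of the 8 genes with a promoter entry (Ly6c2, Plac8, F13a1 and Ace), and at 5 of the 12 annotated starts of these 8, against 23.3% of 32851 mouse promoters of this length. The windows of the 2 Ly6c2 starts overlap. The core 108 bases before the first is also the one 142 bases before the second, so it counts for both. The 23.3% is a share of promoters, not of genes, and a difference from it was not tested. Fn1 had no entry. The interferon response element core GAAANNGAA, present in 7.13% of promoters, and the gamma-activated site TTCNNNGAA, present in 7.02%, each occurred for Chil3 alone. The C/EBP motif TTGCNNAA, present in 9.56%, occurred at the second Plac8 start only. The NR4A motif AAAGGTCA, present in 1.34%, occurred in none. A match is a run of letters, and binding was not measured.

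Fn1 and Vcan encode secreted proteins of the provisional matrix that recruits lay down or meet, and F13a1 is given beside them. Fn1 (ENSMUSG00000026193), fibronectin, was at 4.24 FPKM in WT against 5.82 FPKM in KO cells. Its log2 ratio was 0.38 with the pseudocount and 0.46 without it, with an interval of 0.31 to 0.61 from about 637 and 870 fragments. F13a1 (ENSMUSG00000039109), the catalytic subunit of coagulation factor XIII, was at 0.53 and 0.72 FPKM. Vcan (ENSMUSG00000021614), the proteoglycan versican, was at 0.13 and 0.20 FPKM. The latter pair lay below the floor, and their intervals, -0.20 to 1.08 for F13a1 and -0.06 to 1.37 for Vcan, spanned 0. Hepatocytes and stellate cells also make fibronectin and versican is also made by fibroblasts. The 24 hepatocyte markers summed to 703 FPKM in WT and 1391 in KO macrophages, with 6 of 24 higher by the size rule and 0 lower. The 15 stellate cell and fibroblast markers summed to 72.2 and 175 FPKM, and 5 of the 10 measured were higher and 0 lower. Some of the 10, Lrat among them, reached the floor in the KO library only. The part of hepatocytes, stellate cells and fibroblasts in the Fn1 and Vcan values was not tested.

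S100a4 (ENSMUSG00000001020) is a calcium-binding protein of motile cells, and Chil3 (ENSMUSG00000040809), also known as Ym1, is a chitinase-like protein of monocytes, neutrophils and alternatively activated macrophages. S100a4 was at 3.21 FPKM in WT against 4.36 FPKM in KO cells, a log2 ratio of 0.35. About 29 and 39 fragments gave an interval of -0.29 to 1.18, so a difference was not detectable at this depth. Chil3 was at 1.47 FPKM in WT against 2.64 FPKM in KO cells, a log2 ratio of 0.56 with the pseudocount and 0.84 without it. Its interval was 0.27 to 1.43 from about 41 and 73 fragments, and 91.3% of the measured genes had a lower ratio. Other genes hold 47.4% of the 50-base stretches of S100a4, all in the gene model Gm42674, and 28.5% of those of Chil3, mostly in its paralog Chil4, so both levels are uncertain to that extent. Chil4 was listed at 0 in both libraries, and its coding sequence was 94.4% identical to that of Chil3.

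The measured neutrophil markers had higher values in the KO library beside Chil3. Of 15 such markers 9 were measured, 7 were higher by the size rule and 0 lower, and their sum was 42.3 FPKM in WT and 120.1 in KO macrophages. Some of the 7, Camp among them, reached the floor in the KO library only. S100a8 and S100a9, the subunits of calprotectin, were at 2.84 and 4.31 FPKM in the WT library and at 13.6 and 25.3 FPKM in the KO library. Elane and Ly6g, named after their values were seen, were under the floor in both libraries. Elane was at 0 FPKM in WT and 0.06 in KO cells, and Ly6g at 0.18 and 0.12 FPKM, lower in KO. Whether these cells account for part of the Chil3 value was not tested.

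**Figure D2:**
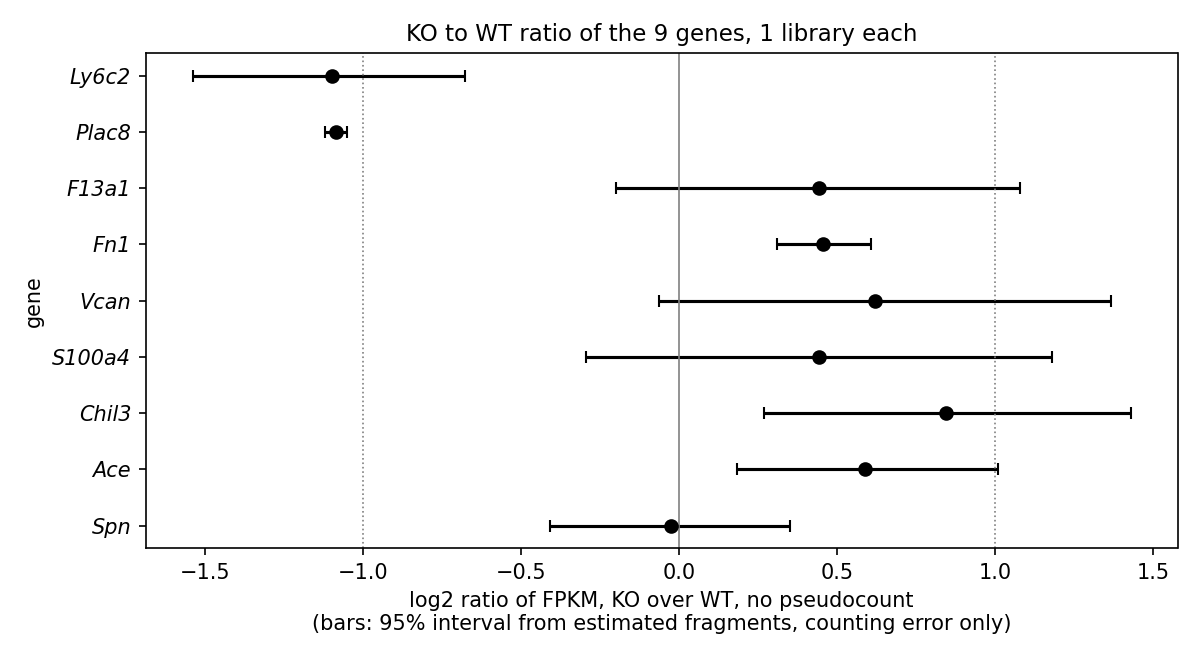
Log2 ratio of KO over WT without a pseudocount for each of the 9 genes, with bars for the 95% exact interval from estimated fragments, which covers counting error only. The intervals of Plac8 and Ly6c2 lie below 0, those of Fn1, Chil3 and Ace above 0, and the other 4 span 0.

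Ace and Spn are genes of patrolling monocytes. Ace (ENSMUSG00000020681), the angiotensin-converting enzyme, was at 0.95 FPKM in WT against 1.43 FPKM in KO cells, a log2 ratio of 0.32 with the pseudocount and 0.59 without it. The interval was 0.18 to 1.01 from about 84 and 126 fragments. Spn (ENSMUSG00000051457), which encodes the sialoglycoprotein CD43, was at 1.77 and 1.74 FPKM, a ratio of -0.02 with an interval of -0.41 to 0.35, and the ratio was just above 0 when KO values were rescaled. Their sum was 2.72 FPKM in WT against 3.17 FPKM in KO cells. Endothelial cells also carry Ace. The 15 sinusoidal endothelial markers summed to 185 FPKM in WT and 362 in KO macrophages, 11 of 15 were higher by the size rule and 0 lower, and their part in the Ace value was not tested. Some of the 11 reached the floor in the KO library only.

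By level the 9 genes ran in the order Plac8, Ly6c2, Fn1, S100a4, Spn, Chil3, Ace, F13a1 and Vcan in the WT library. In the KO library Fn1 stood above Ly6c2 and Chil3 above Spn, and the other places were kept. Neighbors in this order cannot be told apart beyond their spread, since there was no replicate. The 9 genes summed to 929.8 FPKM in WT against 449 FPKM in KO cells, or 0.201% and 0.1001% of all FPKM. Plac8 made up 97.6% and 95.2% of these sums. Without Plac8 the sums were 22.2 and 21.5 FPKM, and without Plac8 and Ly6c2 they were 12.3 and 16.9 FPKM, so the lower KO sum rested on Plac8, and the sum of the remaining 7 genes was higher in KO. Both of these exclusions were made after the values were seen.

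Other genes of classical monocytes lay on both sides of 0. Of 29 listed, 28 matched and 25 were measured, with 1 higher and 1 lower by the size rule and a median log2 ratio of -0.07, against 0.004 over all measured genes. The lower one was Ms4a4c, a membrane protein of the MS4A family, at 167 FPKM in WT against 69.1 FPKM in KO cells. The higher one was Cd14, the lipopolysaccharide coreceptor, at 49.0 and 100.03 FPKM. Lyz2, the lysozyme of myeloid cells, was at 1387 and 2631 FPKM and Cybb, the catalytic subunit of the phagocyte oxidase, at 456 and 425 FPKM. Ccr2, the receptor by which classical monocytes leave the marrow, was at 8.08 and 7.63 FPKM, and it was chosen after its values were seen.

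The other patrolling monocyte genes were mostly expressed far above Ace and Spn, with a median level of 29.3 FPKM in WT and 38.7 in KO cells. All 24 matched and 23 were measured, 3 were higher by the size rule and 0 lower, and the median log2 ratio was 0.17. Nr4a1, the nuclear receptor that patrolling monocytes need, was at 14.1 FPKM in WT against 42.9 FPKM in KO cells. Klf2, a transcription factor of quiescent cells, was at 16.5 and 49.3 FPKM and Pou2f2, an octamer-binding factor, at 12.8 and 29.6 FPKM. These 3 were the ones past the size rule. The most abundant genes did not reach it and lay on both sides of 0. The Fc receptor Fcgr4, at 461 and 397 FPKM, and the integrin chain Itgal, at 399.96 and 322 FPKM, were lower in KO cells, as was the receptor Cd300e, at 186 and 104 FPKM. The G protein subunit Gngt2, at 295 and 333 FPKM, and the receptor Cd300ld, at 264 and 303 FPKM, were higher. Treml4 exceeded Spn by a factor of 167 in the WT library and 147 in the KO library, a comparison chosen after its values were seen.

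**Figure D3:**
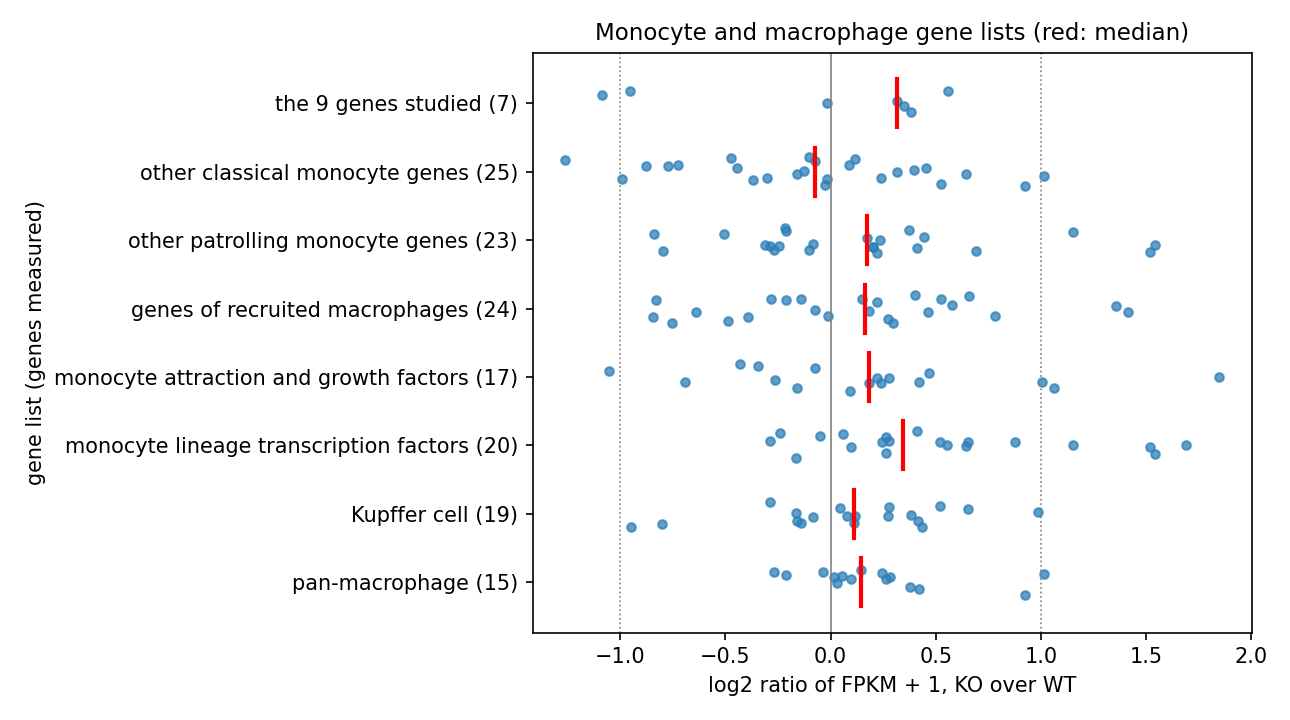
Log2 ratio of KO over WT with 1 FPKM added for each measured gene of the 9 monocyte genes and of the companion monocyte and macrophage lists, with a red line at the median of each list. The 9 genes have a median of 0.32 and the other classical monocyte genes one of -0.07.

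Among 24 genes of recruited macrophages all were measured, 2 were higher and 0 lower, and the median log2 ratio was 0.16. Ms4a7 was at 10.2 FPKM in WT against 27.8 FPKM in KO cells, and the lipid carrier Apoe at 2871 and 7643 FPKM. The class II genes H2-Aa, at 1293 and 829 FPKM, and H2-Eb1, at 451 and 251 FPKM, had lower KO values that did not reach the size rule. Of 20 genes for the attraction and growth of monocytes 17 were measured, with 3 higher, 1 lower and a median of 0.18. The chemokines Ccl3, at 4.18 and 17.7 FPKM, and Ccl4, at 3.35 and 8.09 FPKM, and the cytokine Tnf, at 5.02 and 11.1 FPKM, were the higher ones. Ccl12, a ligand of CCR2, was the lower one, at 9.25 FPKM in WT against 3.94 FPKM in KO cells. Of 22 transcription factors of the monocyte lineage 20 were measured, 4 were higher and 0 lower, with a median of 0.35. Spi1, the gene of PU.1, was at 227 and 243 FPKM, and Klf4 was at 2.80 and 11.3 FPKM. Klf4 was 1 of the 4 higher factors, and the other 3, Nr4a1, Klf2 and Pou2f2, are also in the patrolling monocyte list.

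Macrophage markers were abundant in both libraries, as the samples are labelled, and Kupffer genes stood far above most of the 9 genes. The median over 19 Kupffer genes was 423 FPKM in WT and 501 in KO macrophages, and over 15 pan-macrophage genes 864 and 925, while the median over the 9 monocyte genes was 1.77 and 2.64. Clec4f, the lectin that defines Kupffer cells, was at 3188 FPKM in WT against 4156 FPKM in KO cells, which is 321 and 898 times Ly6c2. Plac8 was the exception, with 12 of the 19 Kupffer genes below it in the WT library and 7 in the KO library. None of the 19 Kupffer genes passed the size rule in either direction, with Fcna, at 1081 and 2146 FPKM, nearest to it above 0 and Marco, at 1377 and 714 FPKM, nearest below. Fcna passed it, at 1.03 and 1.04, when KO values were rescaled.

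**Figure D4:**
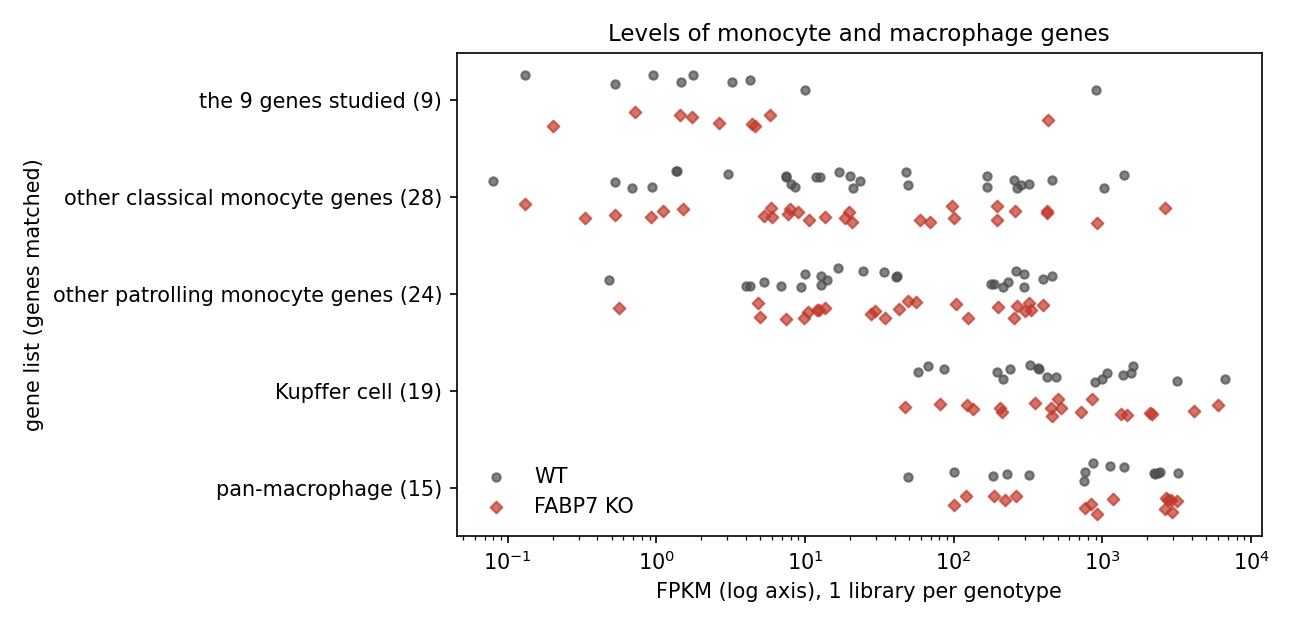
FPKM on a log axis of each gene of 5 lists, 1 point per gene for WT and 1 for KO. Apart from Plac8 the 9 monocyte genes lie below 10 FPKM, whereas the Kupffer genes have medians of 423 and 501 FPKM.

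Markers of lymphocytes and dendritic cells, which also carry Plac8, Ly6c2 or Spn, had summed levels that rested largely on 1 gene in each list. The 20 T and NK cell markers summed to 133 FPKM in WT and 148 in KO macrophages, the 14 B and plasma cell markers to 129 and 155, and the 13 dendritic cell markers to 230.3 and 230.03. Leaving out the highest gene of each list, a step added after the values were seen, gave 32.2 and 51.6 FPKM for T and NK cells without Klrk1, 18.5 and 51.5 for B and plasma cells without Xbp1, and 48.4 and 70.95 for dendritic cells without Bst2. Almost all of the T and NK cell difference without Klrk1 lay in Icos, at 13.9 FPKM in WT and 33.1 in KO cells. Of the 10 measured T and NK cell markers, 5 had ratios above 0 and 5 below. By the size rule 1 of these 10, Icos, was higher and 1, Gzmb, at 3.38 and 0.89 FPKM, was lower. Of the 8 measured B and plasma cell markers 5 were higher by the rule. None of the 7 measured dendritic cell markers passed in either direction. Some of the 5 B and plasma cell markers, Cd79a and Ighd among them, reached the floor in the KO library only. Of 24 cell division genes all 24 were lower in the KO library by the size rule, with a median log2 ratio of -2.41, and Ube2c, a ubiquitin-conjugating enzyme of mitosis, was at 46.5 and 4.03 FPKM. The 10 tumor epithelial markers summed to 7.67 and 7.76 FPKM, with 4 of them measured, 4 at 0 in the WT library and 1 at 0 in the KO library. The keratin gene Krt18 was the highest of them, at 3.38 and 2.48 FPKM. The part of any of these cells or of cell division in the Plac8 and Ly6c2 values was not tested.

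**Figure D5:**
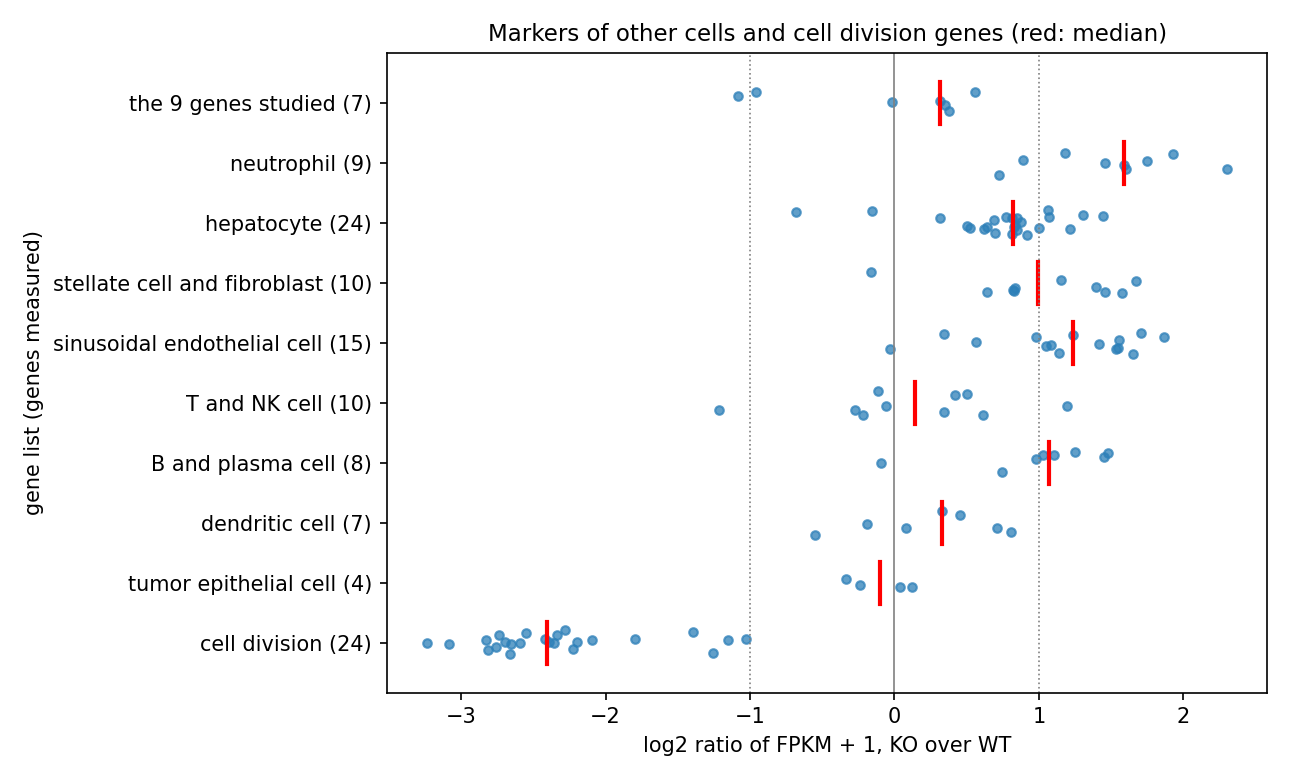
Log2 ratio of KO over WT with 1 FPKM added for the measured markers of other cell types and of cell division, beside the 9 monocyte genes, with a red line at the median of each list. Neutrophil, endothelial and hepatocyte markers have medians of 1.59, 1.24 and 0.82, and cell division genes one of -2.41.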

How the data were processed

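mRNA was measured in 1 WT and 1 KO library. The authors deposited FPKM values with 2 decimals. Per the submitters' processing notes Bowtie2 2.2.8 and TopHat2 2.1.1 were used, with no role given, and the build, annotation and counting tool are not stated in the sources used here, so the only coordinates printed are those of the RefSeq promoters, on GRCm38.p6. Symbols came from GENCODE by Ensembl ID.

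Log2 ratios used a pseudocount of 1 FPKM, a floor of 1 FPKM in at least 1 library and a size rule of 1, with no test. Depth was estimated from whole-fragment steps of low FPKM values multiplied by GENCODE M21 exon length. Of these values 90.7% of 140 (WT) and 89.9% of 138 (KO) lay within 0.15 of a whole number, where chance gives 30%. Each interval is an exact Clopper-Pearson interval at 95% on fragments estimated with the longest coding transcript. The depth estimate, but not the intervals, was tested on simulated data of known depth. The text names Fabp7, the 9 genes, sequence relatives of them and, from each list, the 4 measured genes at most with the largest absolute ratios and the 4 at most with the highest mean. Other genes are said in the text to have been chosen after their values were seen, and were not run through the alternatives. The values of some listed genes are not reported here. The genes and lists were chosen with earlier results of these data known. Alternatives were other pseudocounts, floors, scalings and size rules, and the sum of all rows of a symbol. That sum could change no listed gene, because 0 of them had several rows. Software was Python 3.11.15, NumPy 2.4.6, pandas 2.3.3, SciPy 1.17.1, Biopython 1.88 and Matplotlib 3.10.9.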

Additional observations from a re-analysis of the deposited data

How the results depend on the processing

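With a pseudocount of 0.1 or 0.5 FPKM, 562 and 384 genes were at least 2-fold higher in the KO library, in place of 238, and 2 of the monocyte genes were lower, since Ly6c2 joined Plac8 at -1.08 and -1.02. A floor of 5 FPKM gave 143 higher genes, and a size rule of 1.5 gave 50 higher and 139 lower genes and 0 lower monocyte genes. The median over the monocyte genes was 0.43 with a pseudocount of 0.1, 0.17 with no floor and -0.96 with a floor of 5 FPKM, which left 3 genes, Plac8, Ly6c2 and Fn1. Leaving out Plac8 gave 0 lower monocyte genes and a log2 ratio of the sums of -0.045, and leaving out Ly6c2 too gave 0 and 0.46, both chosen after seeing the data. Multiplying KO values by 1.03 or 1.04 changed the ratio of the sums from -1.05 to -1.01 and -0.999. Of 565 values of 113 named genes under these alternatives, 551 stayed on the same side of the size rule, 12 newly passed it, 2 (Pcna, at -0.99 and -0.98) fell short and 0 that had passed it changed sign. The 565 values, and the 111 list medians below, include the sum of all rows of a symbol. That setting could change no listed gene, so these counts overstate the stability. Spn and Dnase1l3 moved from just below 0 to just above it after rescaling. The median of the recruited macrophage genes went from 0.16 to -0.04 with a floor of 5 FPKM, and that of the tumor epithelial markers from -0.10 to 0.08 with no floor. Of 111 values of list medians 21 moved by 0.1 or more, among them the neutrophil median, from 1.59 to 2.15 with a pseudocount of 0.1 and 0.89 with no floor, and the endothelial median, from 1.24 to 1.68 with a pseudocount of 0.1. Fcna passed the rule at 1.03 and 1.04 after rescaling. No paired analysis was possible because each genotype had 1 library, and for the same reason no library could be left out. Depth limits F13a1, Vcan and S100a4, whose intervals span 0. The Spn interval, -0.41 to 0.35, also spans 0, around a ratio of -0.02, and lies within the size rule.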
